A study of Danio rerio with 9 samples.

Results

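Neuroendocrine secretory granule genes encode the enzymes and granin proteins with which peptide-secreting neurons, pituitary cells, chromaffin cells and islet cells pack and process their hormones. Here 9 of them are described, cpe, pcsk1, pcsk2, scg2b, scg3, scg5, chga, chgb and vgf, taken as the rows with these symbols from a table of 21109 genes or assembled transcripts of zebrafish. All 9 were found, each as a single row. The members were chosen from earlier results of these same data, in which their levels were known, so their differences between groups are given below as a description. No p-value is given for them, and the calls that the fits over all genes made for them are counted without being read as support.

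Peptide hormones are made as larger precursors that aggregate with granins in the trans-Golgi network and bud off in dense-core granules. Inside the granule, the prohormone convertases encoded by pcsk1 and pcsk2 cut the precursor after pairs of basic residues, and carboxypeptidase E, encoded by cpe, trims the basic residues left at the new ends. These roles were worked out mostly in mammals. In an embryo the genes are known mainly from neurons and endocrine cells, and the granins serve as markers of both.

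The RNA was sequenced from zebrafish embryos under the tissue label trunk, in 3 groups of 3 libraries. The first received the sf3b1 morpholino (MO, an antisense oligonucleotide) together with As2S2, an arsenic sulfide. The second received the sf3b1 morpholino alone and the third a control morpholino. The series states that it asks how As2S2 acts on red blood cell maturation through smad7 and TGF-beta, after loss of sf3b1, a core gene of the spliceosome. No strain, stage, dose or pooling of embryos is in the labels used here, and the series text speaks of a knockout where the sample labels speak of a morpholino.

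Counts and FPKM are used. Counts are at hand for the 6 libraries without As2S2, with 21942696 to 28702980 per library, and are given as CPM, scaled to effective library size. FPKM, which scale fragments by transcript length and library size, are at hand for all 9 libraries, but no depth is known for those with As2S2. No label says that libraries of a group came from separate clutches, so any p-value measures the spread between libraries only. For the targeted gene, counts and FPKM gave opposite directions between these groups, so its RNA level neither bears out nor contradicts the label of the sf3b1 group. Why the 2 kinds of value differ was not tested. sf3b1 (ENSDARG00000056138) stood at 888, 889 and 853 CPM in the libraries labelled sf3b1 MO, against 534, 546 and 541 CPM in control MO (edgeR log2 fold change 0.70, SE 0.03, adjusted p = 2e-10). Its FPKM ran the other way, at 109, 106 and 108 in the libraries labelled sf3b1 MO, against 173, 174 and 166 in control MO, and stood at 170, 171 and 167 with As2S2. smad7 (ENSDARG00000016858) was likewise higher by counts, at 53.01 ± 3.82 CPM in sf3b1 MO and 39.1 ± 0.844 CPM in control MO, and lower by FPKM, at 10.2 ± 0.331 and 13.8 ± 1.25 (SD, n = 3 each). For sf3b1 and smad7 alike, the ratio between the groups was of similar size by CPM and by FPKM, with the groups exchanged. For the 9 granule genes the log2 ratios of the groups had the same sign by counts and by FPKM, and the SD of log2 FPKM per CPM over the 6 libraries was 0.005 to 0.062. In this check alone, counts were scaled to raw library totals. Eye genes were plentiful in these libraries labelled as trunk, with the rod opsin rho at 70.8 ± 2.2, 809 ± 12.2 and 929 ± 49.3 FPKM in sf3b1 MO + As2S2, sf3b1 MO and control MO (SD, n = 3 each).

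cpe (ENSDARG00000055874) was the member that stood furthest apart between groups. It encodes the carboxypeptidase that removes the C-terminal basic residues from cut prohormones, and its protein also takes part in sorting of cargo to the granule. In FPKM it stood at 47.1, 44.9 and 46.4 in sf3b1 MO + As2S2, at 58.1, 56.2 and 55.1 in the libraries labelled sf3b1 MO, and at 10.03, 10.3 and 8.98 in control MO. All 6 libraries with the sf3b1 morpholino lay far above the control MO libraries, and the As2S2 libraries lay below all 3 of sf3b1 MO alone, so that no 2 groups overlapped. How many of all genes keep their groups apart in this way was not counted. A lack of overlap, here and below, is thus not read as particular to a member. In CPM the libraries labelled sf3b1 MO had 357, 348 and 342, against 61.2, 62.2 and 54.1 in control MO. This was a 5.90-fold difference by edgeR (log2 fold change 2.56, SE 0.05), and the authors' deposited table gives a log2 fold change of 2.57. Ranked by fitted log2 fold change, cpe was number 114 of 20723 genes, and number 54 of the 15440 genes averaging 4 CPM or more.

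The As2S2 comparisons need a shift to be read. On the log2(FPKM + 1) scale, the median of all 18013 genes tested by limma lay at -0.20 in sf3b1 MO + As2S2 against sf3b1 MO and at -0.25 against control MO. Log2 fold changes of these comparisons are therefore given relative to the median gene. Against sf3b1 MO, cpe lay at -0.08 (SE 0.05), and against control MO at 2.38 (SE 0.05). The lower FPKM of cpe with As2S2 than without was thus close to the shift of all genes, while its distance from control MO remained.

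The convertases ran opposite to cpe. pcsk2 (ENSDARG00000019451) encodes prohormone convertase 2, which acts late in the granule and makes the smaller end products. It had 3.75, 3.50 and 4.75 FPKM in sf3b1 MO + As2S2, 5.31, 3.95 and 4.82 FPKM in the libraries labelled sf3b1 MO, and 9.85, 10.01 and 9.15 FPKM in control MO. The 2 groups with the sf3b1 morpholino overlapped each other and lay below every control MO library. By counts, pcsk2 averaged 10.1 ± 1.43 CPM in sf3b1 MO and 20.3 ± 1.06 CPM in control MO (SD, n = 3 each), a log2 fold change of -1.01 (SE 0.12). Relative to the median gene it lay at 0.01 (SE 0.11) for As2S2 against sf3b1 MO and at -0.85 (SE 0.11) for As2S2 against control MO. The first of these was called lower by limma without As2S2 replicate 3 only, at an unshifted log2 fold change of -0.29 in place of -0.19.

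pcsk1 (ENSDARG00000002600) encodes prohormone convertase 1/3, which makes the first cuts. It was the least abundant member in all 3 groups, at 1.44, 1.74 and 1.54 FPKM in sf3b1 MO + As2S2, 1.23, 0.865 and 0.734 FPKM in the libraries labelled sf3b1 MO, and 2.86, 2.68 and 2.45 FPKM in control MO. The 3 groups did not overlap, with sf3b1 MO lowest, As2S2 between and control MO highest. By counts it averaged 2.53 ± 0.626 CPM in sf3b1 MO and 6.79 ± 0.506 CPM in control MO (SD, n = 3 each), a log2 fold change of -1.42 (SE 0.21), from 51 to 70 counts per sf3b1 MO library against 167 to 210 per control MO library. Among the 9 genes, it had the highest value relative to the median gene for As2S2 against sf3b1 MO, 0.61 (SE 0.11). Against control MO the same libraries lay at -0.26 (SE 0.11). With a pseudocount of 0.1 in place of 1, the unshifted values were 0.70 in place of 0.41 and -0.73 in place of -0.51.

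**Figure D1:**
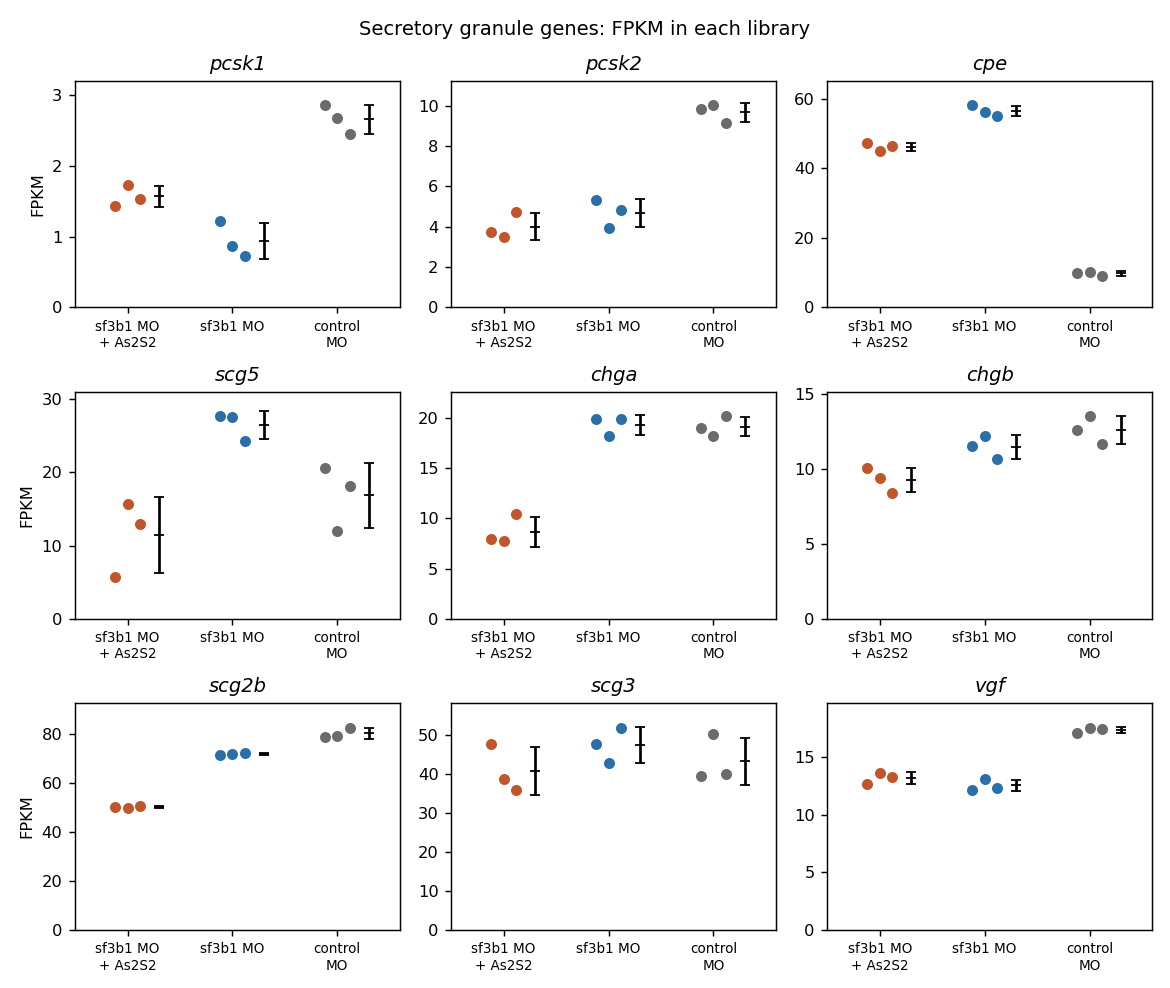
FPKM of each of the 9 genes (vertical axis, from 0, a scale per gene) in the 3 libraries of sf3b1 MO + As2S2, sf3b1 MO and control MO; points are libraries, and the bar beside them is the mean with its SD. cpe is high in both groups with the sf3b1 morpholino (46.1 and 56.5 FPKM on average, against 9.77 in control MO), pcsk1 and pcsk2 are low there, and chga is low in the As2S2 libraries.

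Because the 3 processing enzymes moved in opposite directions, the ratios of cpe to either convertase set the groups with the sf3b1 morpholino further from control MO than any of the 3 genes did by itself. FPKM are per length of transcript, so levels of different genes are set side by side here only as far as the lengths used hold. Those lengths were not checked. By CPM, which do not scale by length, cpe and pcsk2 averaged 349 and 10.1 in sf3b1 MO and 59.2 and 20.3 in control MO. cpe stood at 11.7 ± 1.70 times the FPKM of pcsk2 in sf3b1 MO + As2S2, at 12.2 ± 1.77 times in the libraries labelled sf3b1 MO, and at 1.01 ± 0.0242 times in control MO (SD, n = 3 each). The ratio was 9.77 or more in each library with the sf3b1 morpholino and 1.03 or less in each control MO library. Against pcsk1 the ratio of cpe was 29.6 ± 3.49 in sf3b1 MO + As2S2, 62.5 ± 14.1 in sf3b1 MO and 3.67 ± 0.169 in control MO. Here the As2S2 libraries, at 25.9 to 32.8, lay below those of sf3b1 MO, at 47.3 to 75.1. The ratio of pcsk2 to pcsk1 was 2.57 ± 0.538 in sf3b1 MO + As2S2, 5.15 ± 1.23 in sf3b1 MO and 3.64 ± 0.169 in control MO, so of the 2 convertases pcsk1 had the smaller share in sf3b1 MO alone and the larger in As2S2.

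scg5 (ENSDARG00000077045) encodes 7B2, the chaperone that pcsk2 needs to reach its active form. It had 5.66, 15.7 and 12.9 FPKM in sf3b1 MO + As2S2, 27.7, 27.5 and 24.3 FPKM in the libraries labelled sf3b1 MO, and 20.6, 12.0 and 18.1 FPKM in control MO. The sf3b1 MO libraries lay above all others, while As2S2 and control MO overlapped, each with 1 library far below its other 2. Its log2 fold change was 0.67 (SE 0.21) for sf3b1 MO against control MO by edgeR, and relative to the median gene -1.05 (SE 0.36) for As2S2 against sf3b1 MO and -0.35 (SE 0.36) for As2S2 against control MO. These were the largest errors among the 9 genes in each comparison. The edgeR call of scg5 as higher was lost without control MO replicate 3 (log2 fold change 0.72) and without sf3b1 MO replicate 1, 2 or 3 (0.65, 0.65 and 0.73). For As2S2 against sf3b1 MO, the limma call as lower was lost without sf3b1 MO replicate 1 or 2 (unshifted log2 fold changes -1.22 and -1.22). For As2S2 against control MO, where scg5 was not called, the unshifted value of -0.60 went to -0.20 without As2S2 replicate 1 and to -0.86 without As2S2 replicate 2.

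The spread of scg5 had a counterpart in scg5.2 (ENSDARG00000032126), by its name a second copy of the gene, which was looked at after the values of scg5 were seen. In As2S2 replicate 1, where scg5 was low, scg5.2 stood at 32.7 FPKM, against 25.6 and 26.7 FPKM in the other As2S2 libraries. In control MO replicate 2 it stood at 49.2 FPKM, against 42.1 and 40.1 FPKM in the other control MO libraries. scg5 made up 14.8% and 19.6% of the summed FPKM of the pair in these 2 libraries and 31.1% to 38.0% in the other 7. The sum itself kept close within groups, at 38.3 to 41.2 FPKM in sf3b1 MO + As2S2, 69.9 to 79.5 FPKM in sf3b1 MO and 58.2 to 62.7 FPKM in control MO, with no overlap. Fitted as a single row, the pair had a log2 fold change of 0.36 (SE 0.06) for sf3b1 MO against control MO. Relative to the median gene it lay at -0.70 (SE 0.05) for As2S2 against sf3b1 MO and at -0.35 (SE 0.05) for As2S2 against control MO. The summed row was called higher in the first of these comparisons and lower in the other 2. Whether reads were shared between the 2 genes was not tested.

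**Figure D2:**
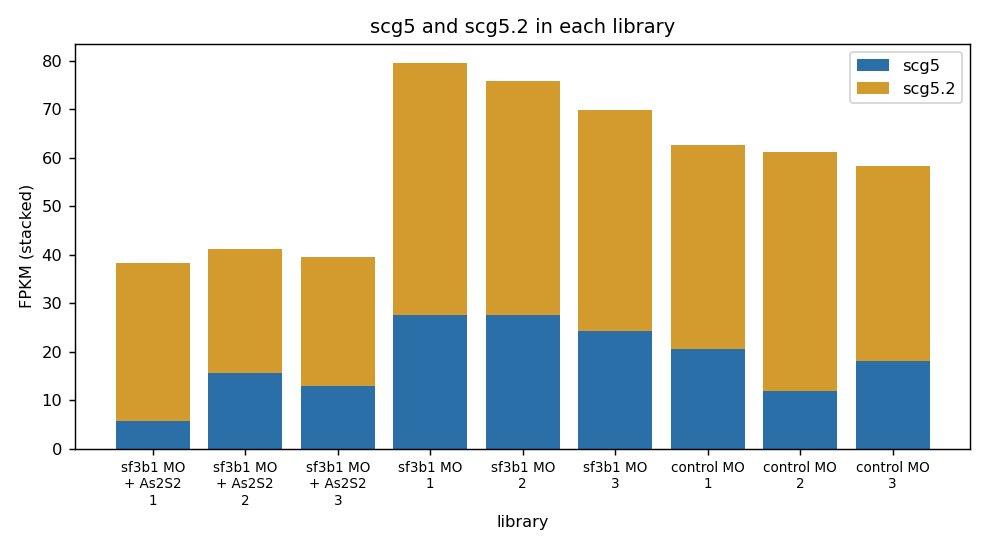
FPKM of scg5 (lower part of each bar) and scg5.2 (upper part) in the 9 libraries, ordered by group and replicate. scg5 takes 14.8% of the bar in As2S2 replicate 1 and 19.6% in control MO replicate 2, while the height of the bars differs little within a group.

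Of the granins, the acidic proteins that form the core of the granule, chga separated the As2S2 libraries and chgb hardly did. chga (ENSDARG00000008829) encodes chromogranin A, a driver of granule formation and precursor of several peptides. It had 7.91, 7.70 and 10.4 FPKM in sf3b1 MO + As2S2, 19.9, 18.2 and 19.9 FPKM in sf3b1 MO, and 19.04, 18.3 and 20.2 FPKM in control MO. The As2S2 libraries lay below all others, and the other 2 groups overlapped. Relative to the median gene chga lay at -0.88 (SE 0.10) for As2S2 against sf3b1 MO and at -0.82 (SE 0.10) for As2S2 against control MO. By counts the libraries labelled sf3b1 MO, at 36.7 ± 2.23 CPM, and control MO, at 35.1 ± 1.95 CPM, overlapped (log2 fold change 0.06, SE 0.07).

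chgb (ENSDARG00000076500) encodes chromogranin B. It had 10.04, 9.40 and 8.42 FPKM in sf3b1 MO + As2S2, 11.5, 12.2 and 10.7 FPKM in sf3b1 MO, and 12.6, 13.5 and 11.6 FPKM in control MO. The As2S2 libraries lay just below the others. Relative to the median gene this was -0.08 (SE 0.08) against sf3b1 MO and -0.15 (SE 0.08) against control MO. By edgeR the log2 fold change of sf3b1 MO against control MO was -0.11 (SE 0.08).

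scg2b (ENSDARG00000038574) encodes secretogranin II, the precursor of secretoneurin, and was the most abundant member in every group. It had 50.1, 49.6 and 50.5 FPKM in sf3b1 MO + As2S2, 71.2, 71.7 and 72.3 FPKM in sf3b1 MO, and 78.6, 79.2 and 82.5 FPKM in control MO. The 3 groups did not overlap. The distance between sf3b1 MO and control MO is not seen in the counts, where they had 205, 208 and 210 CPM against 209, 209 and 216 CPM and overlapped (log2 fold change -0.02, SE 0.03). With counts scaled to raw library totals instead, the difference between the groups in mean log2 value was -0.05 by counts and -0.16 by FPKM. This was the largest gap between the 2 kinds of value among the 9 genes. Relative to the median gene scg2b lay at -0.31 (SE 0.03) for As2S2 against sf3b1 MO and at -0.42 (SE 0.03) for As2S2 against control MO.

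scg3 (ENSDARG00000086288) encodes secretogranin III, which binds cholesterol-rich granule membrane and holds chromogranin A to it. It had 47.7, 38.9 and 35.9 FPKM in sf3b1 MO + As2S2, 47.7, 42.8 and 52.02 FPKM in sf3b1 MO, and 39.5, 50.3 and 40.2 FPKM in control MO. All 3 groups overlapped. The highest libraries of sf3b1 MO + As2S2 and of control MO were the same as those in which scg5 was lowest. The log2 fold change of sf3b1 MO against control MO was 0.16 (SE 0.13), and relative to the median gene As2S2 lay at -0.02 (SE 0.13) against sf3b1 MO and at 0.16 (SE 0.13) against control MO. scg3 was not called in any comparison, but without control MO replicate 2 edgeR called it higher in sf3b1 MO (log2 fold change 0.28), and without As2S2 replicate 1 limma called it lower with As2S2 than in sf3b1 MO (unshifted log2 fold change -0.34).

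vgf (ENSDARG00000105529) encodes a granin-like precursor of several neuropeptides that neurotrophins induce in mammalian neurons. It had 12.6, 13.6 and 13.3 FPKM in sf3b1 MO + As2S2, 12.2, 13.1 and 12.3 FPKM in sf3b1 MO, and 17.1, 17.6 and 17.5 FPKM in control MO. Both groups with the sf3b1 morpholino overlapped each other and lay below control MO. By counts it averaged 54.7 ± 2.29 CPM in the libraries labelled sf3b1 MO and 74.3 ± 0.712 CPM in control MO (SD, n = 3 each), a log2 fold change of -0.44 (SE 0.05). Relative to the median gene, the As2S2 libraries lay at 0.27 (SE 0.05) against sf3b1 MO and at -0.12 (SE 0.05) against control MO.

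**Figure D3:**
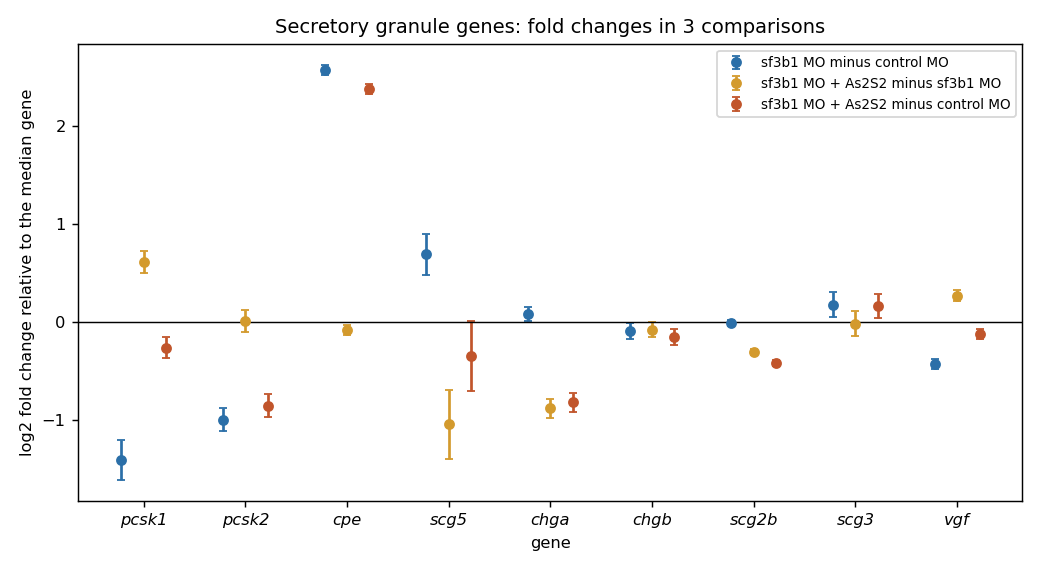
Fold change (log2) of each of the 9 genes, less that of the median gene (vertical axis) in the 3 comparisons, with bars for the SE; sf3b1 MO minus control MO comes from counts by edgeR, the 2 As2S2 comparisons from FPKM by limma. cpe lies at 2.58 and 2.38 in the comparisons with control MO and at -0.08 between the groups with the sf3b1 morpholino, and chga lies at -0.88 and -0.82 in the comparisons of As2S2.

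Counted by the threshold of 0.05 on the Benjamini-Hochberg adjusted p over all genes, the calls of the 9 genes can be read only beside the share of all genes called, and nothing is drawn from them since the members were chosen on these contrasts. All 9 passed the filters on low values. pcsk1, below 1 FPKM in sf3b1 MO replicates 2 and 3, passed that of limma through the other groups. It was also called higher in As2S2 against sf3b1 MO with no filter on low values. For sf3b1 MO against control MO, edgeR called 2 higher (cpe, scg5) and 3 lower (pcsk1, pcsk2, vgf), where 25.2% of the 20723 genes tested were called higher and 25.9% lower. For As2S2 against sf3b1 MO, limma called 1 higher (pcsk1) and 5 lower (cpe, scg2b, scg5, chga, chgb), where 17.3% of the 18013 genes were called higher and 44.6% lower. After subtraction of each library's median, 2 were called higher (pcsk1, vgf) and 3 lower (scg2b, scg5, chga), where all genes gave 30.2% and 27.4%. For As2S2 against control MO, limma called 1 higher (cpe) and 6 lower (pcsk1, pcsk2, scg2b, chga, chgb, vgf), where 19.5% of all genes were called higher and 48.6% lower. After centring, 1 was called higher (cpe) and 3 lower (pcsk2, scg2b, chga), where all genes gave 34.9% and 28.1%. The median log2 fold change of the 9 genes was -0.02, -0.28 and -0.51 in these comparisons, beside -0.02, -0.20 and -0.25 over all genes tested.

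Summed over the 9 genes, the FPKM came to 184 to 186 in the sf3b1 MO + As2S2 libraries, 247 to 255 in sf3b1 MO and 210.2 to 214 in control MO. These and the later sums are not shifted for the median gene. The median FPKM of all genes with a value was 3.68 to 3.74 in sf3b1 MO + As2S2, 4.24 to 4.25 in sf3b1 MO and 4.56 to 4.63 in control MO. Without cpe the sums were 139 ± 1.2 in sf3b1 MO + As2S2, 195 ± 3.78 in sf3b1 MO and 202 ± 1.63 in control MO (SD, n = 3 each). sf3b1 MO thus stood above control MO with cpe and slightly below it without cpe. scg2b, at 71.7 FPKM in sf3b1 MO and 80.1 FPKM in control MO on average, differed in the latter direction. That difference of scg2b is not seen in its counts, which limits the order without cpe and the shares of scg2b. cpe made up 24.9% ± 0.562 of the sum in sf3b1 MO + As2S2, 22.5% ± 0.546 in sf3b1 MO and 4.62% ± 0.307 in control MO. scg2b made up 27.1% ± 0.342, 28.6% ± 0.583 and 37.9% ± 1.13 in the same order of groups. Since these are bulk libraries, fewer cells of a type and less RNA per cell cannot be told apart.

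In all 3 groups scg2b came first by mean FPKM, pcsk2 second to last and pcsk1 last. In sf3b1 MO + As2S2 the order was scg2b, cpe, scg3, vgf, scg5, chgb, chga, pcsk2 and pcsk1. There cpe and scg3 overlapped, as did vgf with scg5, scg5 with both chgb and chga, and chgb with chga. In the libraries labelled sf3b1 MO the order was scg2b, cpe, scg3, scg5, chga, vgf, chgb, pcsk2 and pcsk1, with an overlap only between vgf and chgb. In control MO it was scg2b, scg3, chga, vgf, scg5, chgb, cpe, pcsk2 and pcsk1. There scg5 overlapped with chga, vgf and chgb, and cpe with pcsk2. cpe was second in both groups with the sf3b1 morpholino and seventh in control MO.

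**Figure D4:**
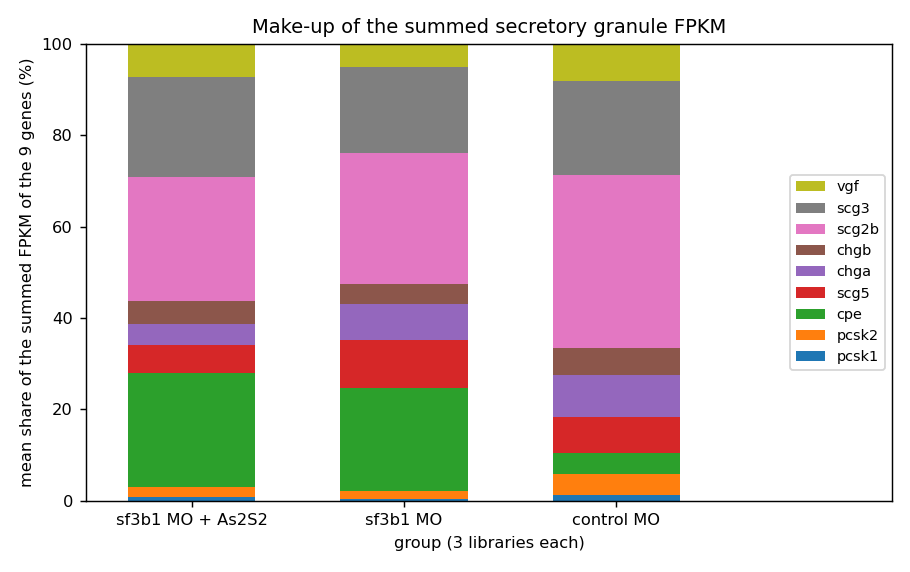
Mean share of each gene in the summed FPKM of the 9 genes (vertical axis, percent) in sf3b1 MO + As2S2, sf3b1 MO and control MO, 3 libraries each. The part of cpe is 24.9% and 22.5% in the groups with the sf3b1 morpholino and 4.62% in control MO, while scg2b has 27.1%, 28.6% and 37.9%.

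The gene lists that follow were, like the 9 members, chosen with earlier results of these data known. Genes named from them were mostly picked by smallest adjusted p in these same data, so the p-values printed for them are descriptive. The other genes of granule formation and prohormone processing were taken from a list of 51 symbols, of which 44 were in the table. Of these, 15 rose and 16 fell in sf3b1 MO against control MO (median log2 fold change -0.01, edgeR), where 25.2% of all genes were called higher and 25.9% lower. The named genes that rose there included syt5b, a synaptotagmin gene of regulated secretion, at 175 ± 2.19 FPKM in sf3b1 MO against 121 ± 1.40 FPKM in control MO (log2 fold change 0.57, SE 0.03, edgeR adjusted p = 3.6e-09). ccdc186, whose product in worm and mammalian cells keeps cargo in maturing dense-core granules, had 8.03 ± 0.116 FPKM against 3.22 ± 0.429 FPKM (log2 fold change 1.24, SE 0.07, edgeR adjusted p = 9.4e-09). cadpsb, which encodes a priming factor for granule release, had 56.7 ± 0.812 against 40.4 ± 0.680 FPKM (log2 fold change 0.52, SE 0.03, edgeR adjusted p = 9.6e-09). Other genes of the list were lower in sf3b1 MO. qpct had 2.76 ± 0.0993 FPKM against 6.59 ± 0.789 FPKM in control MO, and rab3ab had 3.84 ± 0.910 against 9.13 ± 0.916 FPKM. pcsk1nl (ENSDARG00000076170), whose product proSAAS inhibits the enzyme of pcsk1 in mammals, had 35.7 ± 1.45 FPKM in sf3b1 MO and 26.9 ± 0.850 FPKM in control MO (log2 fold change 0.44, SE 0.04, edgeR adjusted p = 2e-06). pcsk1 and the gene of its inhibitor thus had opposite signs in this comparison.

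With As2S2, 5 of 42 tested genes of the list were called higher and 22 lower against sf3b1 MO (median relative to the median gene -0.08), beside 17.3% and 44.6% of all genes. After centring 12 were higher and 16 lower, beside 30.2% and 27.4%. Against control MO, 3 were higher and 24 lower (median -0.08), beside 19.5% and 48.6%, and after centring 9 and 15, beside 34.9% and 28.1%. The genes named here are those with the smallest adjusted p, not a sample of the list. syt5b stood at 58.0 ± 2.50 FPKM in sf3b1 MO + As2S2, against 175 ± 2.19 FPKM in sf3b1 MO (relative log2 fold change -1.38, SE 0.04, limma adjusted p = 3.5e-10). syt5a stood at 0.424 ± 0.144 FPKM in sf3b1 MO + As2S2, 9.99 ± 0.872 FPKM in sf3b1 MO and 10.5 ± 0.859 FPKM in control MO. Its relative log2 fold change was -2.75 (SE 0.10, limma adjusted p = 8.1e-09) against sf3b1 MO. With As2S2 it lay below 1 FPKM in all 3 libraries, so it passed the filter of limma only through the other groups. The same holds for the gene cpm of this list. cadpsb had 28.9 ± 0.491 FPKM with As2S2 (relative log2 fold change -0.75 against sf3b1 MO, SE 0.04, limma adjusted p = 1.3e-08). syt9b, another synaptotagmin gene, had 6.56 ± 0.345 FPKM in sf3b1 MO + As2S2 and 13.3 ± 0.578 FPKM in control MO (relative log2 fold change -0.67, SE 0.07, limma adjusted p = 1e-06). pcsk1nl, at 29.4 ± 0.154 FPKM with As2S2, lay at -0.07 (SE 0.04) relative to the median gene against sf3b1 MO.

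The cargo of the granules was looked at through 34 neuropeptide precursor genes found of 63 listed. In sf3b1 MO against control MO, 17 rose, 1 fell and 16 were not called (median log2 fold change 0.34, edgeR), where 25.2% of all genes were called higher and 25.9% lower. npvf, the precursor of RFamide peptides of the hypothalamus, had 16.0 ± 1.52 FPKM in the libraries labelled sf3b1 MO and 5.06 ± 0.770 FPKM in control MO (log2 fold change 1.68, SE 0.13, edgeR adjusted p = 1.9e-07). tac3a, a neurokinin B precursor, had 7.01 ± 1.06 and 2.14 ± 0.847 FPKM in these groups (log2 fold change 1.71, SE 0.27, edgeR adjusted p = 0.00013). adcyap1b, a PACAP precursor, had a log2 fold change of 0.25 (SE 0.04, edgeR adjusted p = 8.4e-05).

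With As2S2, 22 of 30 tested precursors were called lower and 2 higher against sf3b1 MO (median relative to the median gene -0.46), beside 44.6% and 17.3% of all genes. After centring 17 were lower and 2 higher, beside 27.4% and 30.2%. Of the tested precursors, pyyb lay below 1 FPKM in every As2S2 library and passed the filter of limma only through the other groups. Named among them are apln, the apelin gene, at 16.8 ± 0.759 against 33.6 ± 1.09 FPKM (relative log2 fold change -0.75, SE 0.05, limma adjusted p = 1.8e-07), and vip at 3.81 ± 0.661 against 8.58 ± 0.561 FPKM (-0.80, SE 0.10, limma adjusted p = 1.4e-05). pyya, a peptide YY gene, had 18.0 ± 1.64 FPKM with As2S2 and 30.3 ± 1.90 FPKM without (-0.52, SE 0.07, limma adjusted p = 1.2e-05). Against control MO, 16 precursors were lower and 2 higher (median -0.10), beside 48.6% and 19.5% of all genes, and after centring 9 and 7, beside 28.1% and 34.9%. cckb, a cholecystokinin gene, was among the lower (relative -0.81, SE 0.10, limma adjusted p = 7.2e-06). npvf was higher, at 20.5 ± 1.83 FPKM with As2S2 (relative 2.08, SE 0.10, limma adjusted p = 1.6e-07). As for cpe, both groups with the sf3b1 morpholino stood above control MO in mean FPKM.

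Of 19 pituitary and islet hormone genes listed, 5 were in the table, and their summed FPKM was 19.0 to 23.4 in sf3b1 MO + As2S2, 31.7 to 36.7 in sf3b1 MO and 29.9 to 31.2 in control MO. The As2S2 sum covers only 4 of these genes, since sst1.2 had no FPKM there, so it cannot be set directly beside the others. prl (log2 fold change 0.78, SE 0.19, edgeR adjusted p = 0.0042) and gh1 (0.58, SE 0.19, edgeR adjusted p = 0.019) rose in the libraries labelled sf3b1 MO against control MO. The somatostatin gene sst1.1 fell with As2S2, to 9.29 ± 1.49 FPKM against 19.1 ± 2.41 FPKM in sf3b1 MO (relative log2 fold change -0.77, SE 0.11, limma adjusted p = 3e-05).

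**Figure D5:**
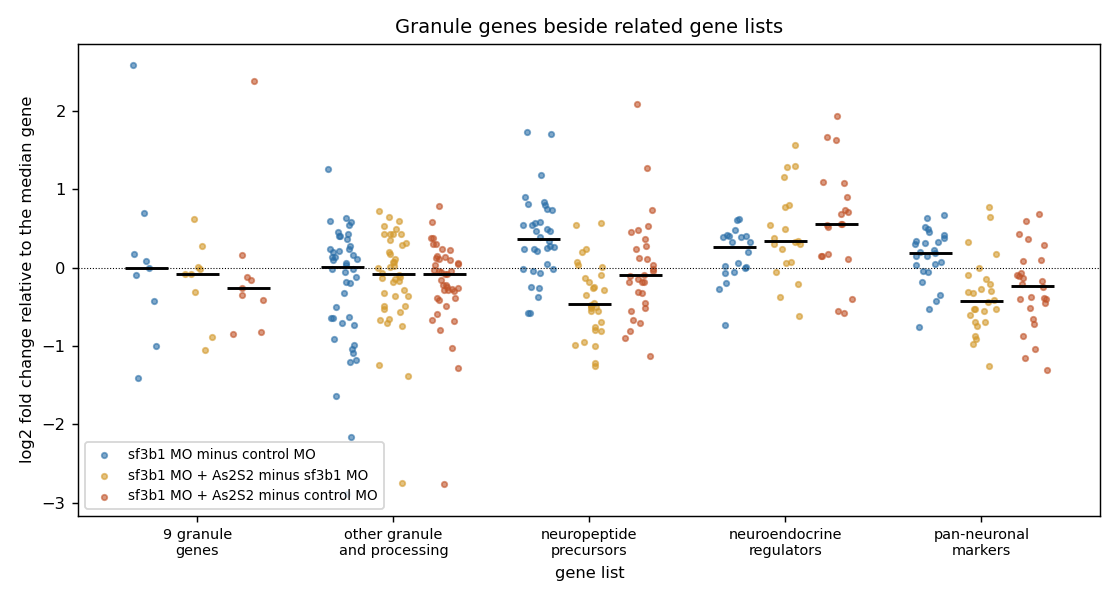
Fold change (log2), less that of the median gene (vertical axis), of each tested gene of 5 lists in the 3 comparisons; points are genes and black bars are list medians. The neuropeptide precursors have medians of 0.36, -0.46 and -0.10 and the neuroendocrine regulators 0.26, 0.33 and 0.55, while the 9 granule genes are spread on both sides of 0.

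Of 28 regulators of neuroendocrine cells listed, 20 were found. In sf3b1 MO against control MO 10 rose and 3 fell, beside 25.2% and 25.9% of all genes. In As2S2 against sf3b1 MO 11 were higher and 5 lower, beside 17.3% and 44.6% of all genes, and after centring 15 and 2, beside 30.2% and 27.4%. In As2S2 against control MO 13 were higher and 4 lower, beside 19.5% and 48.6%, and after centring 17 and 2, beside 34.9% and 28.1%. insm1a, a zinc-finger gene of endocrine and neuronal progenitors, had 95.2 ± 1.54 FPKM in sf3b1 MO + As2S2, 48.8 ± 3.02 FPKM in sf3b1 MO and 53.1 ± 0.711 FPKM in control MO (relative log2 fold change 1.15 against sf3b1 MO, SE 0.04, limma adjusted p = 6.2e-08). ascl1a, a proneural gene, had 43.2 ± 0.435, 16.3 ± 1.90 and 12.8 ± 0.527 FPKM in the same order (relative log2 fold change 1.56 against sf3b1 MO, SE 0.07, limma adjusted p = 1.7e-07). Other members of the list had lower FPKM with As2S2 than in sf3b1 MO, before any shift is taken off. In the same order, neurod1 had 159 ± 2.26, 191 ± 3.24 and 172 ± 2.53 FPKM. isl1a had 78.4 ± 0.778, 104 ± 1.43 and 82.4 ± 2.52 FPKM. neurod2 averaged 4.85, 9.22 and 9.11 FPKM, and mnx1 1.86, 3.21 and 3.46 FPKM. The counts include rest, at 4.08 ± 0.183, 3.01 ± 0.212 and 3.12 ± 0.125 FPKM. Activators and repressors were not counted apart. pax6a and otpa, known from brain and hypothalamic cells, rose in sf3b1 MO against control MO, by log2 fold changes of 0.60 (SE 0.03, edgeR adjusted p = 2.9e-09) and 0.58 (SE 0.03, edgeR adjusted p = 1.6e-08).

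Markers of the cells that could carry these genes moved too, and their part in the differences of the granule genes was not tested. The counts that follow stand beside 25.2% of all genes called higher and 25.9% lower in sf3b1 MO against control MO, and 17.3% and 44.6% (after centring 30.2% and 27.4%) in As2S2 against sf3b1 MO. The summed FPKM that follow are unshifted, and the median FPKM of all genes was itself lowest with As2S2 and highest in control MO. Of 26 pan-neuronal markers, 15 were called higher and 4 lower in sf3b1 MO against control MO, and 22 lower and 2 higher in As2S2 against sf3b1 MO, or 18 and 4 after centring. Their summed FPKM was 2313 to 2357 in sf3b1 MO + As2S2, 3320.0 to 3365 in sf3b1 MO and 2871 to 2895 in control MO, with no marker at 0. snap25b, a gene of the release machinery, had 110.4 ± 1.2, 251 ± 2.03 and 188 ± 3.21 FPKM in that order (relative log2 fold change of As2S2 against sf3b1 MO -0.98, SE 0.03, limma adjusted p = 3.5e-10). Not all markers went this way. elavl3 had 156 ± 1.19, 105 ± 5.44 and 116 ± 1.81 FPKM, and mapta 29.8 ± 0.615, 21.6 ± 1.74 and 38.2 ± 0.828 FPKM, both lowest in sf3b1 MO. Of 7 chromaffin and sympathetic markers, 5 were higher in sf3b1 MO against control MO. In As2S2 against sf3b1 MO, 2 were higher and 2 lower, or 2 and 1 after centring. Their summed FPKM was 129 to 141 in sf3b1 MO + As2S2, 134 to 141 in sf3b1 MO and 99.9 to 104 in control MO, with no marker at 0. Most of the sum came from gata3, which averaged 72.9, 82.9 and 64.1 FPKM in that order, and phox2bb, with 40.3, 30.5 and 21.0 FPKM. Between sf3b1 MO and As2S2, gata3 and phox2bb moved in opposite directions. slc6a2 averaged 0.807, 2.27 and 1.69 FPKM, and dbh had 0.789 to 1.58 FPKM over the 9 libraries. With As2S2, slc6a2 lay below 1 FPKM in every library, so it passed the filter of limma only through the other groups. Of 19 photoreceptor markers, 19 were lower in As2S2 against sf3b1 MO (18 after centring). Their summed FPKM was 279 to 286 in sf3b1 MO + As2S2, 2992 to 3113 in sf3b1 MO and 3446 to 3578 in control MO. opn1mw1, arr3a, arr3b and pde6c lay below 1 FPKM in every As2S2 library, and opn1lw1 was listed at 0 there. These genes passed the filter of limma only through the other groups, which favours a call as lower. The count of lower calls is therefore not read as support. Of 15 trunk muscle and somite markers, 14 were lower in sf3b1 MO against control MO. In As2S2 against control MO 15 were lower, beside 48.6% of all genes, and 14 after centring, beside 28.1%. The summed FPKM of these markers was 1884 to 1921 in sf3b1 MO + As2S2, 3837 to 4072 in sf3b1 MO and 9378 to 9629 in control MO, with none at 0. Of 17 forebrain and eye field markers, 8 were higher and 1 lower in sf3b1 MO against control MO, with summed FPKM of 457 to 478 in sf3b1 MO + As2S2, 373 to 379 in sf3b1 MO and 311 to 324 in control MO, and none at 0. Of 15 heat shock genes, 15 were higher in As2S2 against sf3b1 MO (also 15 after centring), with summed FPKM of 12765 to 13308 in sf3b1 MO + As2S2, 1340 to 1360 in sf3b1 MO and 1037 to 1064 in control MO, and none at 0.

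The genes whose pattern was most like that of scg2b, the most abundant member, were sought by Pearson correlation of log2(FPKM + 1) over the 9 libraries among 5940 genes averaging 10 FPKM or more. They were the tubulin gene tubb4bl (r = 0.998), the lens crystallin genes crygmx (r = 0.998) and crygm2d21 (r = 0.997), nipsnap2 (r = 0.998) and an assembled transcript with no gene name (r = 0.997). tubb4bl averaged 199 FPKM in sf3b1 MO + As2S2, 294 FPKM in sf3b1 MO and 331 FPKM in control MO. Such values are common here, since 628 of the 5940 genes exceeded 0.95, and the 9 libraries fall into 3 groups that share their treatment. For cpe, an anchor added after its values were seen, the closest were a gene with no symbol (ENSDARG00000109678), ank2b, cep290, an assembled transcript and si:dkey-178k16.1, with r of 0.995 to 0.997. ank2b, an ankyrin gene, averaged 110.5 FPKM in sf3b1 MO + As2S2, 117 FPKM in sf3b1 MO and 62.9 FPKM in control MO, a smaller distance from control MO than that of cpe.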

How the data were processed

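PolyA-selected RNA was sequenced by the submitters. The submitters' processing notes list fastp 0.22.0, DESeq2 and the assembly GRCz11. Aligner, counting program, strand setting and any joint scaling of the 9 libraries: not given in the sources used here. The deposited table has 21137 lines, of which 28 hold no gene. Whole-number counts per gene, deposited by the authors for 6 libraries under headers wt and ko, were read as control MO and sf3b1 MO. FPKM were deposited by the authors for 9 libraries; 19760 genes have both. The authors' deposited log2 fold changes compare the same 6 libraries.

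Counts of sf3b1 MO and control MO were compared with edgeR 4.0.16 (quasi-likelihood, TMM, robust; default filter). Both As2S2 comparisons were tested on log2(FPKM + 1) with limma 3.58.1 (trend, robust), all 9 libraries in the fit, over genes of at least 1 FPKM in 3 libraries. These could be libraries of any group, so a gene low in 1 group could pass through the others. The log2(FPKM + 1) scale understates changes of low genes. The p-values were adjusted by Benjamini-Hochberg across every gene tested; calls refer to unshifted values. The common biological coefficient of variation was 0.205. Scripts were tested on simulated data with R 4.3.3, and DESeq2 1.42.0 was an alternative.

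The 9 genes and all gene lists were chosen with earlier results of these data known. Named were all 9 genes, sf3b1, pcsk1nl, up to 3 genes per list and comparison with the smallest adjusted p and a mean of at least 1 FPKM, and 5 genes most correlated with the most abundant member. Not all of them are printed. Other genes were printed outside this rule, among them smad7, scg5.2, chromosomal neighbours, genes like cpe and further list genes such as mnx1 and dbh. Libraries with the same number did not deviate together, so the numbers were not taken as pairs.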

Additional observations from a re-analysis of the deposited data

How the results depend on the processing

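Counts of called genes were refitted with other tools, scalings, filters, pseudocounts and with each library left out. Centring each library on its median lowered the number of the 9 genes called in As2S2 against control MO to 4, against 7 without it; no other setting moved a total of called genes by over 1.5 times. The split by direction moved more. For As2S2 against sf3b1 MO, centring left 3 in place of 5 of the 9 genes lower, 2 in place of 1 higher, and 12 in place of 5 others higher. For As2S2 against control MO it left 3 in place of 6 of the 9 genes lower and 9 in place of 3 others higher. In sf3b1 MO against control MO, 1 in place of 2 of the 9 genes was higher with limma on FPKM and in 4 fits with a library left out, and 3 without control MO replicate 2. With only the 2 groups compared in the fit, or without sf3b1 MO replicate 3, 3 in place of 5 others were higher in As2S2 against sf3b1 MO, and with a library left out 2 or 3 were higher in As2S2 against control MO, against 3. With each library left out in turn, 4 to 6 of the 9 genes were called in sf3b1 MO against control MO, 5 to 7 in As2S2 against sf3b1 MO and 7 in As2S2 against control MO; for the other granule and processing genes the ranges were 25 to 30, 24 to 28 and 23 to 27. With a replicate block, 5, 6 and 7 of the 9 genes were called, as without it, and 31, 26 and 27 of the others, against 31, 27 and 27 without; same-numbered libraries correlated at -0.07 to 0.04 in their deviations from group means. Of 363 refitted fold changes of the 9 genes, those of values called in the main fit kept their sign. Values not called could change it. In As2S2 against sf3b1 MO, pcsk2 went from -0.19 to as high as 0.04 and scg3 from -0.22 to 0.01. In As2S2 against control MO, scg3 went from -0.09 to 0.21. Some settings, such as the replicate block in limma, left the fold change itself unchanged by design. For sf3b1 MO against control MO, limma on FPKM gave 2.42 for cpe, -0.92 for pcsk1 and -0.16 for scg2b, against 2.56, -1.42 and -0.02 on counts. scg5 lost its call there with limma on FPKM, without control MO replicate 3, and without each sf3b1 MO library; in As2S2 against sf3b1 MO it lost it without sf3b1 MO replicate 1 or 2. scg3 gained a call in sf3b1 MO against control MO without control MO replicate 2 and in As2S2 against sf3b1 MO without As2S2 replicate 1, and pcsk2 in As2S2 against sf3b1 MO without As2S2 replicate 3. No other call of the 9 genes differed with a library left out. With scg5 and scg5.2 summed, an alternative chosen after seeing the data, scg5 went to 0.36 in sf3b1 MO against control MO and gained a call in As2S2 against control MO. No depth is known for the As2S2 libraries, so the precision of their low FPKM, as for pcsk1, cannot be given.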

Other observations

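Beside the 9 genes, their chromosomal neighbours were looked at, by the gene order of RefSeq on GRCz12tu, which is not the build of the deposited table. Those of cpe, pcsk1 and chgb are given. For the other members, calls of neighbours in sf3b1 MO against control MO were mixed. Neighbours of scg2b and scg3 were in part called lower and in part not called. The neighbour of scg5 found in the table, actc1a, was called lower. Those of chga were in part called higher and in part not called, and those of pcsk2 and vgf were not called. Of all genes, 25.2% were called higher. On either side of cpe, the nearest genes in the table were spock3, with 12.9 FPKM in sf3b1 MO + As2S2, 19.6 FPKM in sf3b1 MO and 16.7 FPKM in control MO, and msmo1, with 1.07, 1.24 and 0.863 FPKM in the same order. Neither was called in sf3b1 MO against control MO (edgeR log2 fold changes 0.65, SE 0.99, and 0.54, SE 0.29, adjusted p = 0.63 and 0.14). klhl2, beyond msmo1, was called higher, at 1.06 FPKM in sf3b1 MO and 0.449 FPKM in control MO (log2 fold change 1.26, edgeR adjusted p = 0.0073).

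The neighbours of pcsk1 in that order, cast, ell2 and glrx, were all called lower in sf3b1 MO against control MO, with edgeR log2 fold changes of -1.19, -0.61 and -0.43 (adjusted p = 6.8e-10, 8.4e-06 and 0.0026). The neighbours of chgb found in the table, gpcpd1, trmt6 and fermt1, were also all called lower there, while chgb was not called. Their edgeR log2 fold changes were -0.70, -0.89 and -0.74 (adjusted p = 1.9e-05, 0.0042 and 0.013). Since 25.9% of all genes were called lower, these are given as values only.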
